A study of Mus musculus and Sus scrofa with 30 samples.

Results

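Rosiglitazone was compared with its vehicle, DMSO, in 3T3-L1 cells, an established line of mouse embryonic fibroblasts that can be induced to form fat cells. The comparison was defined by the treatment and cell labels and used 6 of the 30 bulk RNA-seq libraries of the series, 3 treated and 3 vehicle. Both groups received the same induction medium, with insulin at 0.75 µg/mL, dexamethasone at 75 nM and the phosphodiesterase inhibitor IBMX at 37.5 µM in 10% serum, and both were taken on day 5, so that every library, vehicle included, came from cells under adipogenic induction. The labels state no dose of rosiglitazone. The series, which by its title studied magnolol and dicoumarol as promoters of fat cell formation for food production, held 3 other treatment groups of 3T3-L1 cells and the same 5 groups of porcine dedifferentiated fat (DFAT) cells. The labels number the libraries of a group 1 to 3 without saying whether they came from separate cultures, so the p-values measure the spread between these libraries, which may be technical.

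Rosiglitazone is a thiazolidinedione drug that binds the nuclear receptor PPARγ, the factor on which fat cell formation depends. PPARγ pairs with a retinoid X receptor (RXR) on DNA and, with C/EBPα, turns on the genes of lipid uptake, storage and release in the adipocyte. In the usual 3T3-L1 protocol the hormone mix first raises C/EBPβ and C/EBPδ, which in turn raise PPARγ and C/EBPα while the fibroblast programme recedes.

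The deposited values are gene counts divided by a size factor for each library, called normalized counts here. The estimated depth was 22770000 to 30744000 reads per library over the 6 libraries, from the smallest steps between values. Correlations between libraries, on the log2 scale and across genes, were 0.984 to 0.989 within the vehicle group, 0.981 to 0.986 within the rosiglitazone group and 0.935 to 0.977 between them. Genes of the mitochondrial genome took 5.22% to 7.00% of the counts with vehicle and 7.66% to 14.3% with rosiglitazone. The label calls the cells fibroblasts, and in the vehicle libraries both fibroblast and early adipocyte genes were present: Vim, the intermediate filament of mesenchymal cells, had 96797, 93335 and 110180 normalized counts, and Fabp4, the fatty acid carrier of adipocytes, had 4942, 2489 and 2627. Markers of endothelial and epithelial cells did not reach the mean of 10 that was needed for a test, with highest values of 12.8 for Pecam1 and 9.88 for Krt19. In bulk RNA, fewer cells of a type and less RNA per cell cannot be told apart.

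Of 15723 genes tested, limma called 6312 (40.1%) at a Benjamini-Hochberg adjusted p under 0.05, 3190 higher with rosiglitazone (20.3%) and 3122 lower (19.9%). A gene is said below to have risen or fallen where it was called in this fit. A change of at least 2-fold was found in 717 called genes that rose (4.56%) and 736 that fell (4.68%). The 3 treated libraries lay above all 3 vehicle libraries in 3702 genes (23.5%) and below them in 3475 (22.1%). The split of the calls depended on the scaling: with libraries scaled to equal totals it was 2612 higher and 3865 lower, so that 40.3% of the calls were rises in place of 50.5%, and the median over all genes tested moved from −0.00 to −0.08 (log2). Fold changes are differences of log2(normalized count + 1), a scale that makes changes of low genes look smaller. The SE given is the one limma moderates across genes. The shares of all tested genes called higher (20.3%) and lower (19.9%) are the background against which the counts in each gene list are to be read.

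The largest rises included genes of the lipid droplet, of a fatty acid carrier and of the hormone adiponectin. Cidec, which fuses lipid droplets, had 815, 186 and 201 normalized counts in vehicle libraries 1, 2 and 3 and 40463, 26297 and 37315 in the corresponding rosiglitazone libraries, a log2 fold change of 6.77 (SE 0.53, limma adjusted p 3.1e-07). Fabp4 went from the vehicle values above to 223880, 119470 and 161480, a rise of 5.68. Adipoq, which encodes the hormone adiponectin, went from 794, 187 and 379 to 20741, 7971 and 12776, a rise of 5.06 (SE 0.53, limma adjusted p 3.1e-06). In all 3 genes vehicle library 1 was the highest of its group and rosiglitazone library 2 the lowest of its own, and the groups did not overlap, which the rule for naming the largest changes required. Also among the 10 largest rises were Mrap, an accessory protein of melanocortin receptors, at 4.99, and Mc5r, a melanocortin receptor, at 4.52. The remaining ones were Cd36, G0s2, Plin1, Fam83a and Lgals12, between 4.57 and 5.02.

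The largest falls were in a chemokine, in proteins of the matrix and in membrane proteins. Cxcl13, a chemokine that attracts B cells, had 314, 251 and 594 normalized counts with vehicle and 24.1, 25.01 and 45.7 with rosiglitazone, a log2 fold change of −3.53 (SE 0.37, limma adjusted p 3.2e-06). Fmo2, a flavin monooxygenase, changed by −3.01, and Npy1r, a receptor for neuropeptide Y, by −2.35. Atp1b1, a subunit of the sodium pump, went from 3784, 4129 and 2528 to 635, 881 and 526. The other falls of this set were in Mmp3, Ogn, Timp3, Smpd3, Mmp9 and Rab43, between −2.91 and −2.25.

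**Figure D1:**
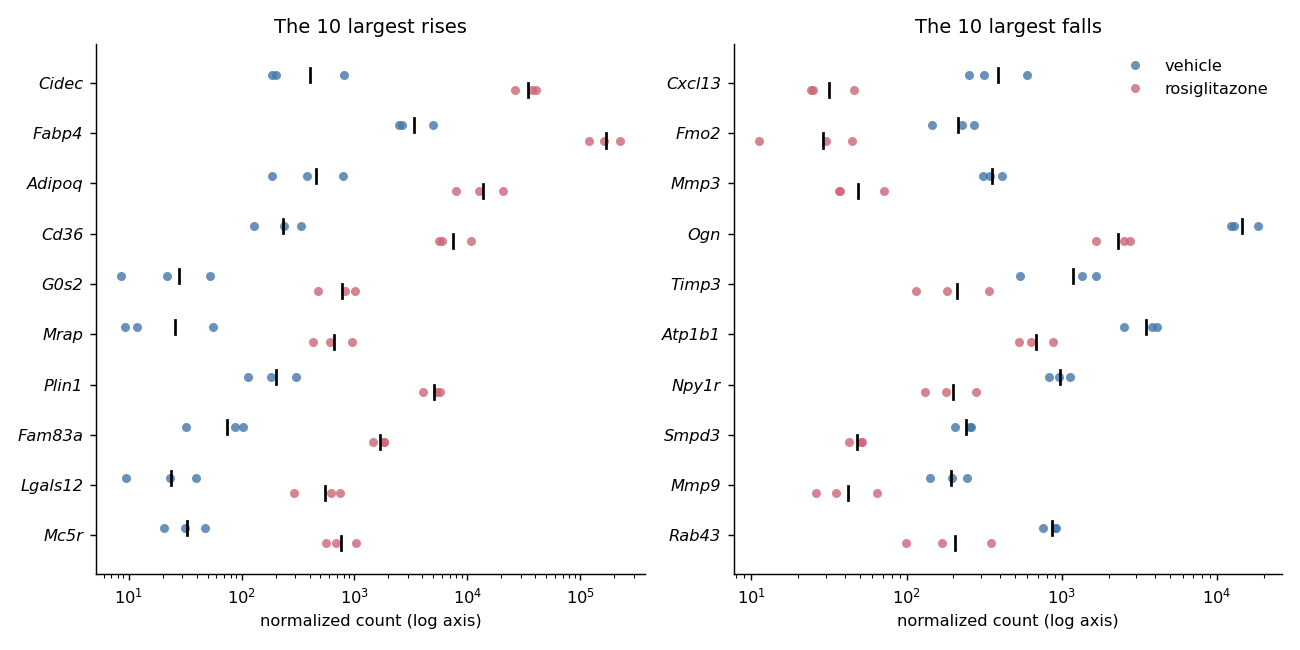
Normalized counts of the 10 largest rises (left) and the 10 largest falls (right) in each library, on log axes; points are the 3 vehicle and 3 rosiglitazone libraries and black ticks are group means. Cidec shows the widest step, from at most 815 with vehicle to at least 26297 with rosiglitazone.

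The 250 bases before the annotated transcription start, from RefSeq on build GRCm38.p6, are shown for the top rise with a window in that table and the top fall, to set their start regions beside the change. The table matched 10164 of 15531 tested symbols. Adipoq lies at chr16:23146286-23146535 on the plus strand and Cxcl13 at chr5:95956689-95956938 on the plus strand. Capitals mark TATAAA, the letters of a TATA box, searched on both strands and found in 12.4% of 32841 windows.
Adipoq: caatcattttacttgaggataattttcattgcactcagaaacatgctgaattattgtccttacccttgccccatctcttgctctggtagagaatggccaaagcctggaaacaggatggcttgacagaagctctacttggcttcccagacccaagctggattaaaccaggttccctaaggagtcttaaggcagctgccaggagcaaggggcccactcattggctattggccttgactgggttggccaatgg
Cxcl13: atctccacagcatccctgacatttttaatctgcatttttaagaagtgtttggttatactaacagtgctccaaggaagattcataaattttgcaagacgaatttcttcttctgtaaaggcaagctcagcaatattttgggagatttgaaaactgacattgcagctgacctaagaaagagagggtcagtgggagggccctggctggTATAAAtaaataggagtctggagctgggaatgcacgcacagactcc
The Cxcl13 window holds the letters 46 to 41 bases before the start and the Adipoq window does not hold them. Of the 10 largest rises 5 had a window, none of them with TATAAA; of the 10 largest falls 8 had one, 3 of them with it. Counted by gene, 8.02% of the 10164 tested genes with a window held TATAAA. Such a match is a description of the letters.

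The adipocyte markers, a list known for these cells, rose in all 19 tested members, with a median log2 fold change of 4.38 against −0.00 for all genes tested. Lep and Adrb3 stayed below the minimum mean, with highest values of 13.6 and 45.0 in any of the 15 3T3-L1 libraries. Some of the markers were measurable in vehicle libraries, as the Fabp4, Lpl and Adipoq values show. Others were low there, with Pck1 at most 0.891 and Slc2a4 at most 10.7 normalized counts. Pck1 passed the minimum mean only through the rosiglitazone libraries, so its place among the 19 is no separate support.

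**Figure D2:**
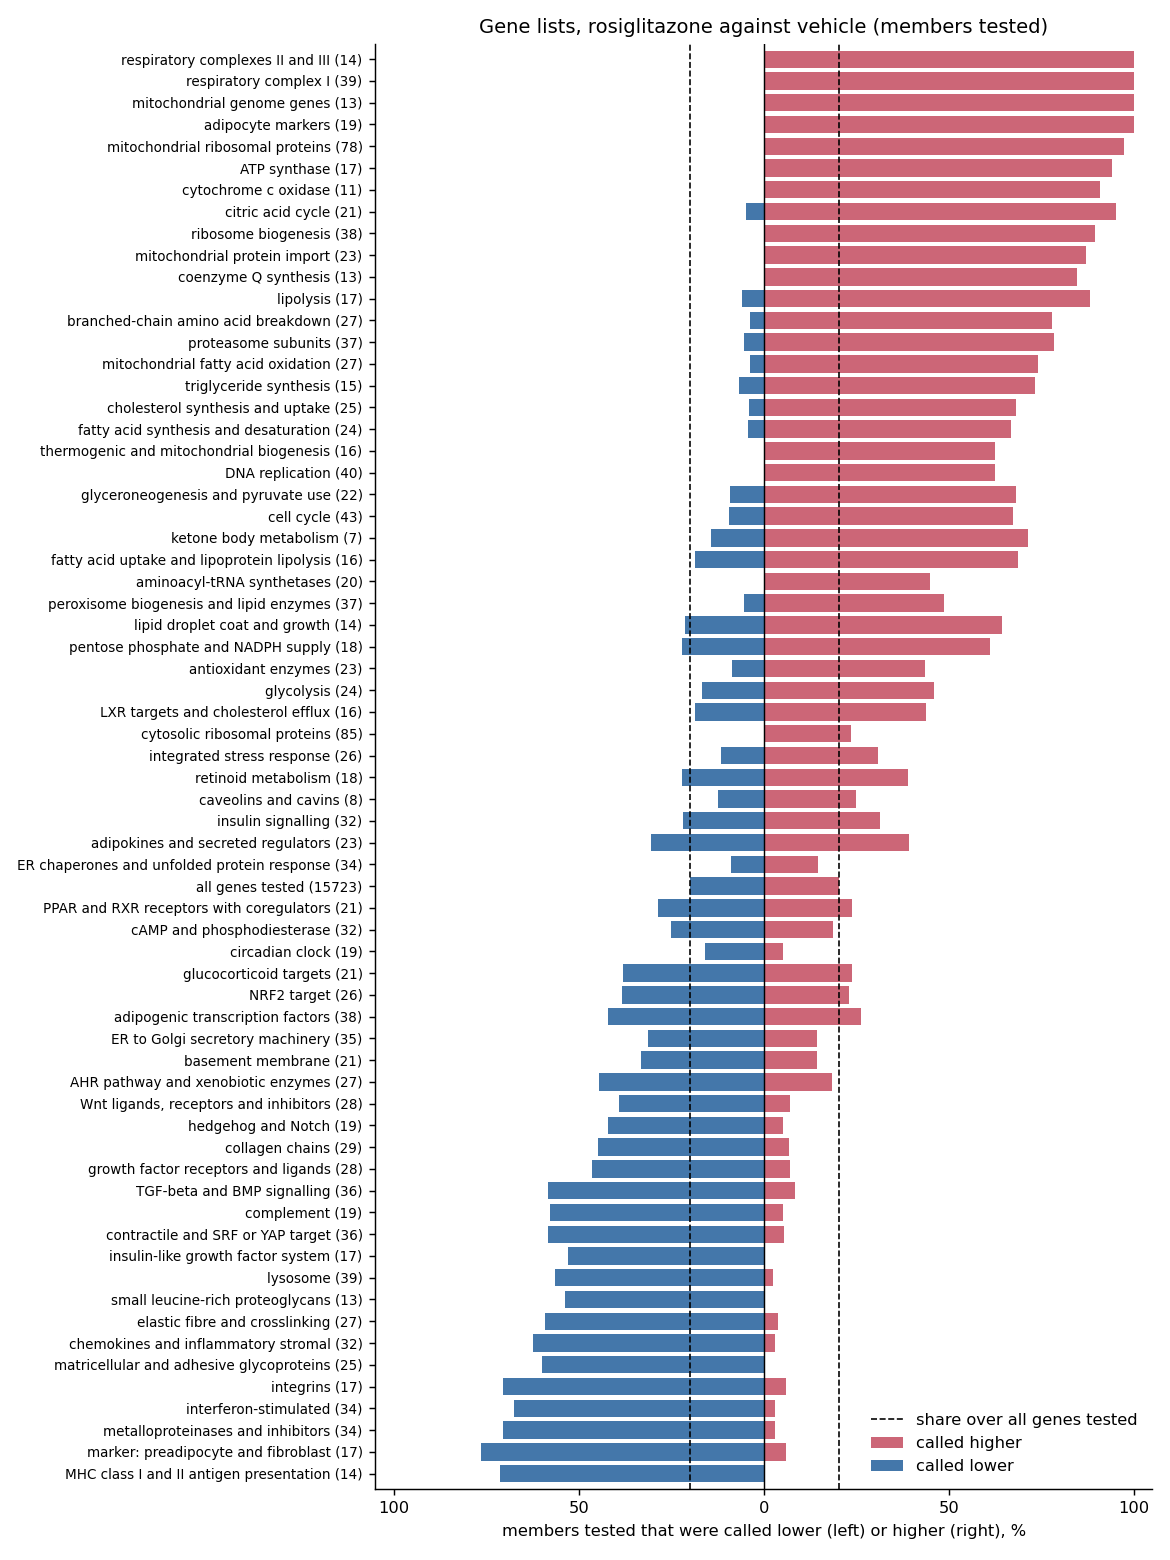
Share of the tested members of each gene list called higher (bars to the right) and lower (bars to the left) with rosiglitazone, in percent, with the number of tested members beside each name and dashed lines at the shares of all genes tested, 20.3% and 19.9%. Respiratory chain lists stand far to the right and lists of matrix, adhesion and innate immune genes to the left.

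Genes that take up, esterify and release fatty acids rose in most members, while the lipoprotein receptors Lrp1 and Vldlr fell. Of 16 tested genes of fatty acid uptake and lipoprotein lipolysis 11 rose and 3 fell, with a median log2 fold change of 0.69. Lpl, the lipase that frees fatty acids from circulating triglyceride, had 53196, 39958 and 38886 normalized counts with vehicle and 263810, 154180 and 166200 with rosiglitazone, a rise of 2.12 (SE 0.23, limma adjusted p 5.0e-06). Angptl4, a secreted inhibitor of that lipase, rose beside it by 2.78, from 1384, 1203 and 1353 to 11133, 7872 and 8412. The receptors Lrp1 and Vldlr, which bind lipoproteins at the cell surface, went the other way, Lrp1 from 37316, 39059 and 34550 to 13671, 25237 and 16171 (−1.06) and Vldlr by −0.88. Both groups of Lrp1 values were apart, with rosiglitazone library 2 closest to vehicle. The third fall, Acsl4 at −0.58, was lost without rosiglitazone library 1 or 3 or vehicle library 2.

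In triglyceride synthesis 11 of 15 tested genes rose and 1 fell, with a median of 0.56. Gpd1, which makes glycerol 3-phosphate from a glycolytic intermediate, had 969, 256 and 180.0 normalized counts with vehicle and 7731, 6148 and 10996 with rosiglitazone, a rise of 4.50 (SE 0.58, limma adjusted p 2.2e-05). Vehicle library 1 was more than 3 times as high as the other 2 vehicle libraries, and all 3 treated libraries lay well above it. Among the enzymes that put the first acyl chain on glycerol, Gpat4 had the highest mean level in its list and rose by 0.56. The single fall, Lpin2 at −0.27, was no longer called without rosiglitazone library 1, 2 or 3 or without vehicle library 2 or 3.

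Lipolysis was the list with the largest median after the adipocyte markers, at 2.96, with 15 of 17 tested genes higher and 1 lower. The lipid lists share members with the adipocyte markers, among them Pnpla2, Lpl and Cidec. Pnpla2, the lipase that starts triglyceride breakdown, went from 2852, 2017 and 2755 to 20451, 14531 and 17661, a rise of 2.79 (SE 0.20, limma adjusted p 1.5e-07). G0s2, an inhibitor of that lipase, went from 52.6, 8.56 and 22.1 to 1016, 471 and 820.0 and was the largest rise of the list. Lipase and inhibitor were thus higher in the same 3 libraries. Lipa, the acid lipase of lysosomes, changed by −0.51, from 2652, 3009 and 2578 to 1577, 2261 and 2004.

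Lipid droplet proteins split by member: 9 of 14 tested rose and 3 fell, with a median of 0.97. Plin1, the adipocyte coat protein that gates lipolysis, went from 306, 114 and 184 to 5395, 4049.6 and 5702. Plin4, a coat protein of small droplets and the member with the highest mean, went from 6913, 7303 and 8176 to 15190, 17121 and 16927 (1.14). Plin3, a coat protein found in most cell types, went from 4244, 3729.9 and 4027 to 2382, 2876 and 2791 (−0.58, limma adjusted p 8.9e-05). The other falls, Hsd17b11 and Rab18, were both lost without rosiglitazone library 1, without vehicle library 2 and in a fit to the 6 libraries alone, which left 1 fall, and Hsd17b11 also without vehicle library 1 or 3.

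Fatty acid synthesis and desaturation had 16 of 24 tested genes higher and 1 lower, with a median of 0.55. The largest rise was Elovl3, an elongase of very long chain fatty acids, near 0 with vehicle (0, 0 and 2.32) and at 32.5, 28.3 and 59.3 with rosiglitazone. The log2 difference of 4.71 shrinks by more than 1.5 times with a pseudocount of 10. Its mean over the 15 3T3-L1 libraries was 11.0, and only the rosiglitazone libraries brought it above the minimum of 10. Scd2, a desaturase with close paralogs and the most abundant member, had a difference of 0.33 that did not pass (limma adjusted p 0.0679; 0.00852 with the replicate numbers as a block). Elovl5 had a log2 fold change of −0.33, which was no longer called without rosiglitazone library 1 or vehicle library 2, and the block gave 3 falls.

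Enzymes that supply glycerol and acetyl units from pyruvate rose in 15 of 22 tested genes and fell in 2 (median 0.84). Pck1, the key enzyme of glyceroneogenesis, had 0.891, 0.856 and 0 normalized counts with vehicle and 81.8, 39.1 and 114 with rosiglitazone. All 3 vehicle values were at or below 1 count, so the fitted difference of 5.58 depends on the pseudocount and shrinks by more than 1.5 times with a pseudocount of 10. Pck1 also passed the minimum mean only through the rosiglitazone libraries. Pcx, pyruvate carboxylase, went from 5715, 5224 and 5616 to 19794, 20406 and 19138, a rise of 1.84 (SE 0.12, limma adjusted p 7.0e-08) with narrow groups on both sides. Pdp1, a phosphatase that activates pyruvate dehydrogenase, went from 6626, 9890.4 and 7266 to 2089.5, 3789.7 and 3775 (−1.33). The other fall, Pdk1, was lost without rosiglitazone library 1 or vehicle library 1 or 2.

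Cholesterol genes rose as well: 17 of 25 tested genes of synthesis and uptake were higher and 1 lower, with a median of 0.64. Cyp51, a demethylase of the sterol pathway, went from 728, 517 and 813 to 2281, 2078 and 4211, a rise of 2.01 (SE 0.36, limma adjusted p 0.000428). Hmgcs1, an early enzyme of the pathway, went from 3224, 2809 and 2649 to 4769, 5924 and 6749 (1.00). Rosiglitazone library 3 was the highest in both. The fall was Scap, the escort of the sterol-sensing factor SREBP, at −0.33, and it was not called without rosiglitazone library 1 or 3 or vehicle library 3.

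In the list of LXR targets and cholesterol efflux 7 of 16 tested genes rose and 3 fell (median 0.50). Scarb1, the receptor for high-density lipoprotein, went from 260.1, 252 and 301 to 1735, 1586 and 1716, a rise of 2.63 (SE 0.15, limma adjusted p 2.4e-08). Pltp, which transfers phospholipid between lipoproteins, went from 1289, 1319 and 1352 to 593, 736 and 604 (−1.04). Npc1, which exports cholesterol from lysosomes, had a log2 fold change of −0.61. Npc2, its soluble partner and the most abundant member, differed by −0.05 (95% interval −0.28 to 0.19). The fall of Soat1 was lost without rosiglitazone library 1 or 3 or vehicle library 1 or 2.

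The window of Hmgcs1 is shown because it alone, of 18 windows in the cholesterol synthesis list, holds the letters TCACNCCAC, a sterol response element bound by SREBP. It lies at chr13:119690101-119690350 on the plus strand and holds the letters, in capitals, 137 to 129 bases before the start. The motif was searched on both strands and was in 1.05% of 32841 windows. Of 122 tested genes with it 25.4% rose and 28.7% fell, beside 22.3% and 22.4% of all tested genes with a window.
Hmgcs1: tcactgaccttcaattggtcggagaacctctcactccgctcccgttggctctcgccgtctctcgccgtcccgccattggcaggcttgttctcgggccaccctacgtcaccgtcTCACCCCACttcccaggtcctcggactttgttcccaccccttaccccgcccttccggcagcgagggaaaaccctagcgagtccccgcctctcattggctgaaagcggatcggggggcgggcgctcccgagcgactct
A match describes letters only and was not tested as a binding site.

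Mitochondrial genes rose across nearly all members of several lists. Of 39 tested subunits of respiratory complex I all 39 rose, as did 14 of 14 of complexes II and III, 10 of 11 of cytochrome c oxidase and 16 of 17 of ATP synthase, with no fall in any of them. The median log2 fold changes were 0.87, 1.07, 1.04 and 0.91 in that order. Cycs, the electron carrier cytochrome c, went from 1566, 1070.1 and 1266 normalized counts to 8641, 5499 and 8139, a rise of 2.50 (SE 0.19, limma adjusted p 2.9e-07). Atp5g3, a subunit of the membrane ring of ATP synthase, went from 4676, 3581 and 4271 to 12274, 10077 and 10639 (limma adjusted p 4.3e-07). Ndufc2 rose by 1.48, the most in complex I, and Cox5b by 1.23 and Sdha, the catalytic subunit of complex II, by 0.44. In these 3 genes the groups did not overlap.

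The 13 genes encoded by the mitochondrial genome also rose, with a median of 0.89. mt-Nd1, a complex I subunit, had 141480, 113340 and 150040 normalized counts with vehicle and 457560, 227460 and 349030 with rosiglitazone, a rise of 1.31 (SE 0.22, limma adjusted p 0.000223), and 0.68 under quantile normalization. As deviations from the vehicle mean the median member stood at 1.34, 0.34 and 0.99 in rosiglitazone libraries 1, 2 and 3, so library 2 showed the smallest rise. mt-Co1, a core subunit of cytochrome c oxidase, rose by 0.80, which was not called without rosiglitazone library 1 (limma adjusted p 0.051), without vehicle library 2 (0.0603) or in a fit to the 6 libraries alone (0.0964). Counts of mitochondrial genes can be shared with nuclear copies of these sequences. For complex I the same library medians were 1.15, 0.63 and 0.81, against 0.12, −0.27 and 0.11 in the vehicle libraries.

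The machinery that builds mitochondria rose with the respiratory chain. Of 78 tested mitochondrial ribosomal proteins 76 rose and none fell (median 0.69), with Mrpl12 the furthest, from 1156, 775 and 944 to 2719.6, 2680.5 and 2866. Protein import had 20 of 23 tested genes higher (median 0.71), with Timm8a1, a chaperone of the intermembrane space, at 1.43 and Tomm70a, an import receptor, at 0.70. Coenzyme Q synthesis had 11 of 13 higher (median 0.78), led by Coq8a, from 108, 93.1 and 108 to 426, 371 and 313. No member of these 3 lists was called lower.

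Mitochondrial fuel use followed the same direction. Fatty acid oxidation had 20 of 27 tested genes higher and 1 lower (median 0.78). Acadm, the medium-chain dehydrogenase, went from 4629, 3781 and 4632 to 13405, 10646 and 11784, a rise of 1.46 (SE 0.12, limma adjusted p 4.3e-07). The fall was Cpt1c, the neuronal form of carnitine palmitoyltransferase, at −0.63. With the replicate numbers as a block, 2 genes of this list were lower.

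In the citric acid cycle 20 of 21 tested genes rose (median 0.85), led by Idh3a, a subunit of the NAD-dependent isocitrate dehydrogenase, from 1632, 1382 and 1475 to 9814, 7153 and 9768. The exception was Idh2, the NADP-dependent enzyme of the mitochondrion, which went from 11315, 10600 and 14148 to 7548, 9217 and 9688 (−0.44, limma adjusted p 0.0165). That fall was not called without rosiglitazone library 1 (limma adjusted p 0.0841) or vehicle library 3 (0.0844).

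Breakdown of branched-chain amino acids had 21 of 27 tested genes higher and 1 lower (median 0.63). The first step showed opposite values for its isoenzymes. Bcat2, the mitochondrial aminotransferase, went from 1664, 1054 and 1724 to 5571, 4089 and 5052 (1.75, SE 0.19, limma adjusted p 4.8e-06), and Bcat1, the cytosolic one, from 1016, 1187 and 623 to 440.3, 682 and 417 (−0.86, SE 0.22, limma adjusted p 0.00606). The Bcat1 groups overlapped, since rosiglitazone library 2 lay above vehicle library 3. Of 7 tested ketone body genes 5 rose and 1 fell. Acat1 rose by 0.92 and Oxct1, which activates ketones for use, by 0.63, while Bdh2, a cytosolic hydroxybutyrate dehydrogenase, went from 210.2, 253 and 178 to 66.05, 113 and 80.3 (−1.32). Without rosiglitazone library 2, or with the 6 libraries alone, 3 ketone body genes were called higher.

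Genes tied to heat production and mitochondrial biogenesis rose in 10 of 16 tested, with a median of 0.59 and no call lower in the fit used here, against 2 with the block. Ppargc1b, a coactivator of mitochondrial genes, went from 53.4, 35.9 and 46.5 to 663, 314 and 456, a rise of 3.32 (SE 0.26, limma adjusted p 3.1e-07). Its relative Ppargc1a had 121, 139 and 136 and 127, 141 and 319.9, overlapping values whose difference of 0.44 did not pass (95% interval −0.30 to 1.18). With libraries weighted by their quality that gene was called, at 1.13 (limma adjusted p 0.00262), the highest value being rosiglitazone library 3. Ucp2, a mitochondrial carrier, rose by 1.22, and Kcnk3, a potassium channel of brown and beige fat, from 109.6, 64.2 and 102 to 850.2, 633 and 921. Ucp1, the uncoupling protein that defines brown fat, was at most 1.71 and Cidea at most 1.95 in any 3T3-L1 library, so neither was tested. Of the shorter list of brown or beige markers 5 genes were tested and 2 rose, Kcnk3 and Elovl3. Elovl3 passed the minimum mean only through the rosiglitazone libraries, so its place among the tested rises depends on the filter. Eva1a, a marker of that kind at low counts, went from 12.5, 11.1 and 22.1 to 6.29, 2.17 and 7.41 (−1.43, limma adjusted p 0.0174). It was not called without rosiglitazone library 2 or vehicle library 3. With the block 2 of the 5 tested markers were lower.

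**Figure D3:**
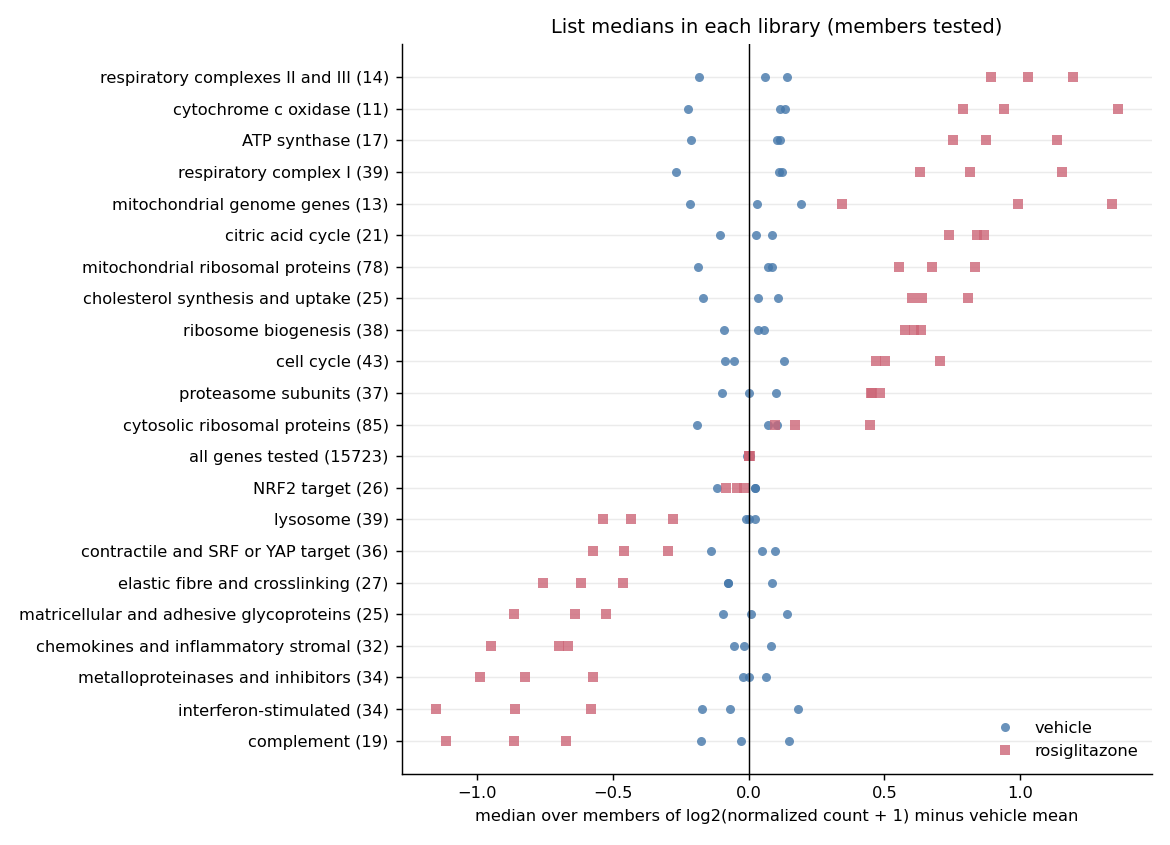
Median deviation of the members of selected gene lists from their vehicle mean, in log2 units, in each of the 3 vehicle and 3 rosiglitazone libraries. For the mitochondrial genome the 3 treated libraries stand at 1.34, 0.34 and 0.99.

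Start regions of 2 ATP synthase genes, Atp5k and Atp5g3, are shown for letters bound by factors of mitochondrial genes. Atp5k was chosen after its values were seen and rose by 1.25 (limma adjusted p 1.2e-05). It lies at chr5:108434400-108434649 on the minus strand and holds GCGCA followed after 1 base by GCGC, the motif of NRF1, 50 to 41 bases before the start. Atp5g3 lies at chr2:73911327-73911576 on the minus strand and holds TCAAGGTCA, the motif of estrogen-related receptors, on the opposite strand 52 to 44 bases before the start. Capitals mark the matches.
Atp5k: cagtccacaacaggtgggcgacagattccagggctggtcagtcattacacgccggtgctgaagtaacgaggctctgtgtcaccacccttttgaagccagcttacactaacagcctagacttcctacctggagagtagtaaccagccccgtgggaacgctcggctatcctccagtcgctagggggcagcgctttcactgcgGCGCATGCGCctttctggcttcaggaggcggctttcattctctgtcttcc
Atp5g3: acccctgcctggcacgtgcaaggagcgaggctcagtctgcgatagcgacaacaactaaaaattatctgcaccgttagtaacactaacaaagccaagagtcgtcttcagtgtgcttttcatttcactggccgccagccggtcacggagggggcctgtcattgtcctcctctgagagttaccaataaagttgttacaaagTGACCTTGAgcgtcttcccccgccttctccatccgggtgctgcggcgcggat
Both motifs were searched on both strands. NRF1 letters were in 3.74% of all windows and the receptor letters in 0.387%. Counted by gene, as in the lists below, 9.41% and 0.28% of the 10164 tested genes with a window held them. Of the 956 tested genes with an NRF1 match 25.4% rose and 13.7% fell, beside 22.3% and 22.4% of all tested genes with a window. Of the 28 with the receptor letters 21.4% rose and 28.6% fell. In the ATP synthase list 4 of 15 genes with a window held NRF1 letters, 3 of which rose, and 1 held the receptor letters. Further, 6 of 34 complex I genes with a window and 10 of 69 mitochondrial ribosomal genes held NRF1 letters, and all of these rose. Most members of both lists rose without the letters in this window, and such a match is a description.

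Peroxisomal genes had 18 of 37 tested members higher and 2 lower, with a median of 0.39. The largest rise was Acaa1b, a peroxisomal thiolase with a close paralog, from 16.5, 16.5 and 16.6 to 142, 93.6 and 139.5. Cat, catalase, the most abundant member, differed by −0.27 (95% interval −0.61 to 0.07) and was called lower with the replicate block (limma adjusted p 0.0227). The fall of Pex26 was lost without rosiglitazone library 1 or 3 or vehicle library 1, 2 or 3, and without rosiglitazone library 1 or vehicle library 3 no gene of the list was called lower, while the block gave 4 falls.

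The pentose phosphate and NADPH list had 11 of 18 tested genes higher and 4 lower (median 0.41). Taldo1, transaldolase, went from 1737, 1211 and 1634 to 5796, 4301 and 5292, a rise of 1.75 (SE 0.14, limma adjusted p 4.3e-07). H6pd, which makes NADPH inside the endoplasmic reticulum, changed by −0.54, and Aldh1l2, a mitochondrial folate enzyme, by −0.65. With libraries scaled to equal totals the rises numbered 7.

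Glycolysis moved less, with 11 of 24 tested genes higher, 4 lower and a median of 0.16. Slc2a4, the insulin-responsive glucose carrier, went from 10.7, 5.99 and 5.81 to 309, 152 and 204, a rise of 4.70 (SE 0.51, limma adjusted p 4.7e-06). Slc2a1, the carrier found in most cells, went from 2496, 2082 and 2229.5 to 1768, 1658 and 1476 (−0.47). Hk1, a hexokinase, changed by −0.66, and Pkm, the most abundant member, differed by 0.13 (95% interval −0.11 to 0.36). Without rosiglitazone library 1, or with the 6 libraries alone, 2 genes of the list were called lower.

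The gene of the drug's receptor rose by less than 2-fold. Pparg had 1353, 1149 and 1247 normalized counts with vehicle and 2052, 1780.1 and 2057 with rosiglitazone, a rise of 0.65 (SE 0.13, limma adjusted p 0.000716). Ppard, a sister receptor, rose by 0.56, from 1359, 1197 and 1563 to 2102, 1958 and 1994, and Rxra, a partner receptor, by 0.39 (limma adjusted p 0.00645; 0.0526 with the 6 libraries alone). Ppara had at most 18.5 normalized counts in these 6 libraries and a difference of −0.50 that did not pass (limma adjusted p 0.325).

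In the list of 21 tested receptors and coregulators 5 rose (23.8%) and 6 fell (28.6%), with a median of 0.05. These shares are not far from the 20.3% and 19.9% of all genes tested. The largest rise was Ppargc1b, described above, at 3.32. Ncoa1, a coactivator, went from 1249, 1586 and 1349.5 to 1968, 2157 and 1976 (0.55), and Ncoa3, of the same family, from 2470.1, 2739 and 1909 to 827, 1203 and 1136 (−1.17, SE 0.15, limma adjusted p 1.5e-05). Ncor1, a corepressor, differed by 0.14 (95% interval −0.03 to 0.31). The falls of Ncoa2, Ncoa6, Crebbp and Ep300 were lost without rosiglitazone library 1, which left 2 falls; without vehicle library 2, or with the 6 libraries alone, 3 falls were left. Weighting the libraries by quality gave 8 rises. Med1, Ncoa4, Nrip1, Sirt1, Tle3 and Carm1 lay between −0.13 and 0.14 and were not called, with Nrip1 called higher when libraries were weighted (0.33, limma adjusted p 0.0206).

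Transcription factors of fat cell formation split into rises such as Cebpa and Nr1h3 and falls such as Klf4 and Prrx1. Of 38 tested factors 10 rose and 16 fell (median −0.26). Cebpa, the late C/EBP factor, went from 371, 204 and 443 to 3494, 2101 and 3248, a rise of 3.15 (SE 0.39, limma adjusted p 1.5e-05). The early factors did not pass: Cebpb had 2962, 2686 and 3328 and 3598, 2872 and 2673, a difference of 0.02 (95% interval −0.31 to 0.35), and Cebpd differed by −0.32, which was called without vehicle library 2 (limma adjusted p 0.0351) and with the replicate block (0.0326). Cebpg, a family member that lacks an activation domain, rose by 0.78.

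Nr1h3, the oxysterol receptor LXRα, went from 139, 100.1 and 151 to 623, 472 and 638 (2.15). Zfp423 and Ebf2, factors of committed preadipocytes and beige fat, rose by 1.20 and 1.01, and Zfp521, a related zinc finger protein known to oppose Zfp423 and Ebf1, went from 2370.3, 2956 and 2481 to 889, 1528 and 1208 (−1.13, SE 0.15, limma adjusted p 2.2e-05). The groups of all 4 genes were apart. Stat5a rose by 0.88 while Stat5b, its near copy, differed by 0.01 (95% interval −0.19 to 0.20). Srebf1, the factor of lipogenic genes, rose by 0.76 and Foxo1 by 0.33. Klf15 was low with vehicle (11.6, 1.71 and 8.14) and rose to 61.9, 28.3 and 50.6.

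Several Krüppel-like factors fell. Klf4 went from 1498, 1767 and 1526 to 441, 598 and 474, a log2 fold change of −1.67 (SE 0.16, limma adjusted p 1.6e-06), and Klf6 and Klf3 changed by −0.75 and −0.72. Klf5 and Klf9 differed by −0.30 and −0.21 and were called only with the replicate block (limma adjusted p 0.0111 and 0.0378). Among mesenchymal factors Prrx1 went from 11184, 13497 and 10135 to 5042, 7595 and 6523 (−0.87), and Sox4, Sox9 and Runx2, the last a bone cell regulator, changed by −0.88, −0.72 and −0.54. All 3 treated libraries lay below all vehicle libraries in these genes. Nfia changed by −0.29, which was not called with the 6 libraries alone (limma adjusted p 0.0646). The falls of Irf4, Klf2, Ebf1, Nfib, Twist2 and Runx1 were each lost without 1 or more single libraries. Gata2, Gata3, Irf3, Zfp467, Ddit3, Foxc2 and Twist1 were not called, with log2 differences from −0.49 to 0.33; Irf3 was called higher without rosiglitazone library 2 or vehicle library 3 and with the block, Twist1 lower without vehicle library 2, and Gata2 lower with the block.

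**Figure D4:**
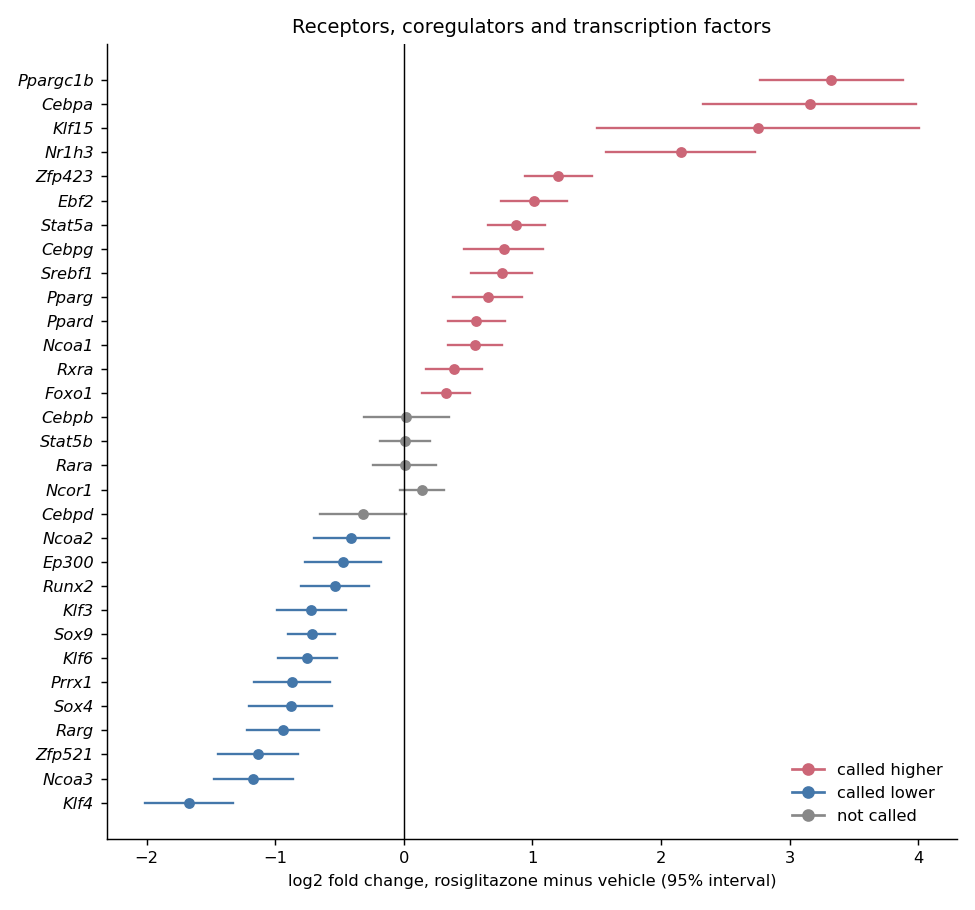
Log2 fold change with its 95% interval for receptors, coregulators and transcription factors, rosiglitazone against vehicle, with called genes in colour. Ppargc1b at 3.32, Cebpa at 3.15 and Klf15 at 2.75 lie farthest to the right, and Pparg stands at 0.65.

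Genes of adipokines and other secreted regulators went in both directions. Of 23 tested adipokines and related genes 9 rose and 7 fell (median 0.01). Retn, the hormone resistin, went from 112, 23.96 and 34.9 to 1318, 683 and 1011, a rise of 4.38 (SE 0.51, limma adjusted p 9.4e-06). Agt, angiotensinogen, went from 8273, 7123 and 11234 to 37406, 26901 and 25658 (1.76). Cfd, the serine protease adipsin, went from 306, 58.2 and 53.5 to 654, 327 and 834 (2.50). Vehicle library 1 reached 306, just below rosiglitazone library 2, so the Cfd groups are close. Rarres2, chemerin, rose by 2.32, while its receptor gene Cmklr1 was at most 23.2 and did not pass (limma adjusted p 0.0641; 0.012 without vehicle library 1, 0.0282 with the block).

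The adiponectin receptors differed from each other in their values: Adipor2 went from 3549, 3932 and 3143 to 8318, 9154 and 8048 (1.27, SE 0.09, limma adjusted p 1.3e-07) and Adipor1 from 2993, 2746 and 2959.5 to 2613, 2825 and 2869 (−0.07, 95% interval −0.23 to 0.09). Lcn2, an acute-phase lipid carrier, went from 2821, 2892 and 3912 to 1179.5, 1369 and 1230 (−1.33). Angptl2, C1qtnf6 and Metrnl, made by stromal cells among others, changed by −0.79, −0.74 and −0.72. Il18 had a log2 fold change of −1.06, and of −0.66 without rosiglitazone library 1. C1qtnf1 fell furthest of the list, from 32.1, 59.9 and 34.9 to 13.6, 25.01 and 6.17 (−1.58). C1qtnf5 fell but was not called without rosiglitazone library 1 or vehicle library 1. Apln, Nampt, Nrg4 and Dpt were between −0.24 and 0.06 and were not called in the fit used here, Nampt being called with weighted libraries and Dpt with the replicate block.

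Retinoid genes had 7 of 18 tested members higher and 4 lower (median 0.19). Retsat, a retinol saturase, went from 1572, 1710.3 and 1529 to 5034, 4684 and 4472, a rise of 1.56 (SE 0.09, limma adjusted p 4.7e-08). Adh1, an alcohol dehydrogenase that can oxidise retinol, went from 376, 249 and 189 to 1405, 1091 and 662 (1.94), and Bco1, which cleaves beta-carotene, from 13.4, 9.41 and 11.6 to 38.8, 34.8 and 44.5 (1.70). Rdh11, Rdh12 and Dhrs3, which interconvert retinol and retinal, rose by 0.47, 1.17 and 0.90. On the falling side were Aldh1a1, which makes retinoic acid, from 1109, 1410.5 and 1126 to 441, 652 and 669 (−1.06), the receptor Rarg at −0.94 and Adh7 at −0.53 (−0.34 without rosiglitazone library 1). Rara differed by 0.01 (95% interval −0.24 to 0.25). The rise of Aldh1a7 was lost without rosiglitazone library 1 or 3 or vehicle library 1 or 2.

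Start regions of 2 genes that rose and hold AGGNCA as a direct repeat with 1 base between the copies, the element that PPARγ and RXR bind together, are shown because this is the receptor pair that the drug acts on. Bco1 lies at chr8:117095615-117095864 on the plus strand with the letters 56 to 44 bases before the start. Slc13a4, a sulfate carrier, lies at chr6:35308127-35308376 on the minus strand with the letters 88 to 76 bases before the start. Capitals mark the repeat, on the opposite strand in both.
Bco1: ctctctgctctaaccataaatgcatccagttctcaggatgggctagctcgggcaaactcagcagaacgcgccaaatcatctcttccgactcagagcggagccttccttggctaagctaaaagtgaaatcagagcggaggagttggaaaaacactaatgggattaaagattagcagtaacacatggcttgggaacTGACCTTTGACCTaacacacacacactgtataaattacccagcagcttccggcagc
Slc13a4: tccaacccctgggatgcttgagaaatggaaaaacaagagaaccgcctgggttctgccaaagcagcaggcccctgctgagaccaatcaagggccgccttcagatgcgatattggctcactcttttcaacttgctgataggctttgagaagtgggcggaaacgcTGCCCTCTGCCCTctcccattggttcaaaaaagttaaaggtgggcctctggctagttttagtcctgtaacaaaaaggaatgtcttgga
Slc13a4 went from 11.6, 1.71 and 2.32 normalized counts to 85.97, 66.3 and 119, a log2 fold change of 4.20 (limma adjusted p 2.0e-05). The repeat was in 0.338% of all windows on either strand, and its half-site shares letters with the estrogen-related receptor motif. Of 27 tested genes with the repeat 7 rose and 4 fell, 25.9% and 14.8%, near the 22.3% and 22.4% of all genes with a window. None of the 5 largest rises with a window held it within these 250 bases. A match is a description and not a site.

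Insulin signalling genes were mixed, with 10 of 32 tested higher and 7 lower (median −0.07). Slc2a4, described above, was the largest rise, and Grb14, an adaptor that inhibits the insulin receptor, the largest fall, from 372, 339 and 299 to 144, 174 and 186 (limma adjusted p 1.3e-05). Of 8 tested caveolin and cavin genes 2 rose and 1 fell, 2 with the block. Ehd2, which stabilises caveolae, rose by 0.57. Cav1, the main coat protein, had 37334, 44974 and 41816 and 36229, 41097 and 44957, a difference of −0.02 (95% interval −0.28 to 0.23). Cavin1 rose by 0.38 (limma adjusted p 0.00715; 0.0613 with the 6 libraries alone), Pacsin3 was lost without rosiglitazone library 2 or 3 or vehicle library 1 or 3, and Cavin2 at 0.76 was called with the block (limma adjusted p 0.000236) and without rosiglitazone library 1 (0.0376). Cavin3 at −0.29 was called with the block (0.0386) and without vehicle library 2 (0.00941), and Cav2 at 0.20 without vehicle library 2 (0.0377).

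Lists of the extracellular matrix held more falls than rises. Of 29 tested collagen chains 13 fell and 2 rose (median −0.35). Col1a2, a chain of collagen I, went from 141120, 149960 and 145670 normalized counts to 77119, 111080 and 104980 (−0.59, SE 0.14, limma adjusted p 0.00384; 0.0505 with the 6 libraries alone). Col28a1, a minor collagen, fell furthest, from 102, 184 and 145 to 26.2, 26.1 and 44.5 (−2.12). Against this Col6a3, a collagen VI chain, rose from 59283, 64698 and 70687 to 78366, 111470 and 105440 (0.59), and Col15a1, found at basement membranes, from 208, 218 and 146 to 585, 742 and 419 (1.59). With the 6 libraries alone 8 chains were lower, and rises numbered 4 without rosiglitazone library 2 and 5 with the block.

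Small leucine-rich proteoglycans, which regulate collagen fibrils, fell in 7 of 13 tested members and rose in none (median −0.71). With the block 10 fell. Ogn, osteoglycin, went from 12384, 18216 and 12802 to 1664, 2514 and 2738, a log2 fold change of −2.66 (SE 0.19, limma adjusted p 1.8e-07). Bgn, biglycan, the most abundant member, differed by −0.30 and was called lower only with the block (limma adjusted p 0.0281) and under quantile normalization (0.0303). In the list of elastic fibres and crosslinking 16 of 27 fell and 1 rose (median −0.59). Lox, which crosslinks collagen and elastin, went from 83291, 122240 and 88877 to 17075, 32130 and 35620 (−1.84, SE 0.24, limma adjusted p 2.7e-05), and P4ha3, a collagen prolyl hydroxylase, from 338, 312 and 428 to 62.9, 109.8 and 116. In both genes rosiglitazone library 1 was the lowest of all. The rise, Loxl1 at 0.26, was lost without rosiglitazone library 2 or 3 or vehicle library 1 or 2.

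Matricellular and adhesive glycoproteins fell in 15 of 25 tested members and rose in none (median −0.69). Fn1, fibronectin, went from 144620, 158330 and 129120 to 30619, 63008 and 38963, a log2 fold change of −1.77 (SE 0.20, limma adjusted p 7.0e-06). Metalloproteinases and their inhibitors fell in 24 of 34 tested and rose in 1 (median −0.74). Mmp3 went from 342, 412 and 310.4 to 36.7, 71.8 and 37.05 and Mmp2, the gelatinase of fibroblasts, from 49084, 60022 and 48188 to 20022, 35322 and 26101 (−0.98). Timp3, an inhibitor bound to the matrix, went from 1339.7, 1664 and 535 to 182, 338 and 115, so proteases and an inhibitor were lower together. The rise was Adamtsl2 at 1.90, lost without vehicle library 2 (limma adjusted p 0.0534), and the block gave 4 rises.

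Basement membrane genes were split, with 3 of 21 tested higher and 7 lower (median −0.30). The most abundant, Col4a1, differed by −0.25 (95% interval −0.53 to 0.03) and was called lower without rosiglitazone library 2 (limma adjusted p 0.0296). Lamb1, a laminin chain, was called higher at 0.40 but not without vehicle library 1 (limma adjusted p 0.0539). The number lower was 4 without rosiglitazone library 1 or vehicle library 2, and 13 without rosiglitazone library 2 or with the block. Integrins fell in 12 of 17 tested and rose in 1 (median −0.65). Itgb1, the common beta chain of matrix receptors, went from 23020, 27092 and 19219 to 11927, 16929 and 14811 (−0.67), whereas Itga7, a laminin receptor chain, went from 33.8, 27.4 and 27.9 to 237, 198 and 224 (2.85, SE 0.25, limma adjusted p 6.8e-07). With the 6 libraries alone 7 integrin genes were lower.

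Contractile genes and targets of SRF or YAP, which follow cell tension, fell in 21 of 36 tested and rose in 2 (median −0.44). Myh11, a smooth muscle myosin, was one of the rises, from 41.9, 45.4 and 24.4 to 119.5, 94.6 and 77.8 (1.39). The other, Myh10 at 0.35, was lost without rosiglitazone library 2 or vehicle library 3. Actb, cytoplasmic actin and the most abundant member, had 54395, 48769 and 48497 and 42752, 44407 and 40209, a difference of −0.25 that was not called (limma adjusted p 0.0874) except with the block (0.0274), equal totals (0.0342) or weighted libraries (0.00173).

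The signalling lists that follow, which hold ligands, receptors and inhibitors together, had more falls than rises, unlike insulin signalling above. TGF-beta and BMP genes fell in 21 of 36 tested and rose in 3 (median −0.47). Grem1, a secreted BMP antagonist, went from 1382, 1681 and 1062 to 275, 518 and 300.1, a log2 fold change of −1.95 (SE 0.20, limma adjusted p 3.4e-06). Tgfbr3, a coreceptor and the most abundant member, changed by −0.55, and by −0.33 without rosiglitazone library 1. Gdf5 and Nog were called higher at low counts, and both rises were lost without rosiglitazone library 1 or vehicle library 2, leaving 1 rise. Nog was also lost without rosiglitazone library 3 or vehicle library 1. Gdf5 passed the minimum mean only through the rosiglitazone libraries.

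Wnt genes fell in 11 of 28 tested and rose in 2 (median −0.32). Sfrp2, a secreted Wnt binder, went from 828, 841 and 906 to 203, 271 and 248 (−1.84, SE 0.15, limma adjusted p 4.3e-07), and Sfrp5, of the same family, from 7.13, 2.57 and 3.49 to 28.3, 32.6 and 32.1 (2.66, limma adjusted p 0.000315, on low counts). Each had groups that were apart, but Sfrp5 passed the minimum mean only through the rosiglitazone libraries. Dlk1, or Pref-1, the preadipocyte protein that inhibits differentiation and stands in the same list, went from 27581, 19864 and 23620 to 9664, 12694 and 9920 (−1.14, SE 0.15, limma adjusted p 2.1e-05). The rise of Tcf7l1 was lost without vehicle library 2 (limma adjusted p 0.0533). Hedgehog and Notch genes fell in 8 of 19 and rose in 1. Notch3 went from 47.02, 51.4 and 56.96 to 22.02, 31.5 and 19.8, and Gas1, a hedgehog coreceptor, changed by −0.75. Hes1, the rise, was lost without rosiglitazone library 1 (limma adjusted p 0.0614), and with the 6 libraries alone 5 genes of the list were lower.

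In the insulin-like growth factor system 9 of 17 tested genes fell and none rose (median −0.42). Igf1 went from 735, 1418 and 918 to 173, 385 and 263, a log2 fold change of −1.92 (SE 0.32, limma adjusted p 0.000196). Growth factor genes fell in 13 of 28 and rose in 2 (median −0.48). Pdgfra, the receptor that marks adipocyte progenitors, went from 21200, 22412 and 17921 to 9933, 13370 and 11482 (−0.83), and Pdgfrl, a receptor-like protein, from 1724, 1865 and 1404 to 252, 432 and 389 (−2.24). Fgfr3 and Fgfrl1, of the fibroblast growth factor receptors, rose by 1.65 and 0.68, and the block gave 4 rises.

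The next lists are tied to IBMX and dexamethasone, which both groups received. In the cAMP list 6 of 32 tested genes rose (18.8%) and 8 fell (25%), with a median of −0.24. These shares are near the 20.3% and 19.9% of all genes tested. Pde10a, a phosphodiesterase, went from 128, 149.8 and 98.8 to 26.2, 66.3 and 46.9 (−1.49), and Prkar1a, a regulatory subunit of protein kinase A, changed by −0.34 (limma adjusted p 0.00394; 0.0575 with the 6 libraries alone). Without vehicle library 2, or with the 6 libraries alone, 5 cAMP genes were lower. Among glucocorticoid targets 5 of 21 rose (23.8%) and 8 fell (38.1%), with a median of −0.32. Fkbp5, a standard readout of that receptor, had 26301, 31208 and 28452 and 22315, 31239 and 26344, a difference of −0.12 (95% interval −0.38 to 0.15). Hsd11b1, which makes active glucocorticoid inside the cell, went from 99.8, 61.6 and 74.4 to 433, 186 and 387 (2.02). Zbtb16 and Fkbp4 rose by 0.50 and 0.49, and Saa3 fell, at −1.42. The rise of Mt2 was lost without rosiglitazone library 1 or 2 or vehicle library 2 or 3, and falls numbered 5 without rosiglitazone library 3 and 13 with the block.

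In the clock list 1 of 19 tested genes rose (5.26%), by at least 2-fold, and 3 fell (15.8%), with a median of −0.17. Both shares are below the 20.3% and 19.9% of all genes tested. Bhlhe41, a repressor of the clock loop, fell from 466, 503 and 430.5 to 287, 389 and 326 (−0.49). Per1 and Hlf fell, but neither was called without vehicle library 2, Per1 not without rosiglitazone library 3 and Hlf not without rosiglitazone library 1, and the block gave 2 rises and 8 falls and equal totals 5.

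Innate immune genes of the stroma fell across chemokines, complement and interferon-stimulated genes. Of 32 tested chemokine and inflammatory genes 20 fell and 1 rose (median −0.80). Cxcl12, the most abundant chemokine, went from 30844, 27417 and 36468 to 14102, 17591 and 21496 (−0.84, SE 0.16, limma adjusted p 0.000672). Nfkbiz, the rise, was lost without rosiglitazone library 1 or vehicle library 1 or 2, and the block gave 3 rises and leaving out rosiglitazone library 2 gave 2. In the complement list 11 of 19 tested genes fell (median −0.84), and the only rise was Cfd, the adipsin described above. Masp1, a protease that starts the lectin pathway, went from 1384, 1894 and 1461 to 262, 475 and 384 (−2.10, SE 0.19, limma adjusted p 8.2e-07). C3, the central component and most abundant member, had 20336, 29346 and 34872 and 16298, 21260 and 26306, overlapping values with a difference of −0.40, called only with the block (limma adjusted p 0.0023).

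Of 34 tested interferon-stimulated genes 23 fell and 1 rose, with a median of −0.92. Oasl2, an antiviral protein of the oligoadenylate synthetase family, went from 126, 89.01 and 143 to 19.9, 10.9 and 41.99, a log2 fold change of −2.42 (SE 0.35, limma adjusted p 5.8e-05). The block gave 3 rises and leaving out rosiglitazone library 2 gave 2. Antigen presentation fell in 10 of 14 tested genes (median −0.74). B2m, the common light chain of class I molecules, went from 26159, 21189 and 22936 to 15867, 12826 and 13634 (−0.73), and Psmb9, an immunoproteasome subunit, from 59.5, 40.5 and 66.3 to 21.2, 21.9 and 18.9 (−1.35). No gene of this list rose in the fit used here, and 1 did without rosiglitazone library 3 or with the block.

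The start region of Gbp7, an interferon-induced GTPase chosen after its values were seen, is shown for TTTC repeated with 2 bases between the copies, the interferon-stimulated response element. Gbp7 went from 219, 276 and 286 to 56.5, 96.8 and 123 (−1.55, limma adjusted p 0.000217). It lies at chr3:142530086-142530335 on the plus strand, with the letters, in capitals, 53 to 44 bases before the start.
Gbp7: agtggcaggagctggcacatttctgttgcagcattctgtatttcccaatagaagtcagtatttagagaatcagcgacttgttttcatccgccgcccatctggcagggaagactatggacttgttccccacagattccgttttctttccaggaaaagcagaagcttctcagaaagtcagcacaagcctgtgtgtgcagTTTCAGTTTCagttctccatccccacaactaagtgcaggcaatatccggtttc
The element was searched on both strands and was in 2.98% of all windows. Counted by gene, 3.09% of tested genes with a window held it. Among interferon-stimulated genes 10 of the 25 with a window held it, 6 of them lower with rosiglitazone. Of the 314 tested genes with the element 18.8% rose and 31.2% fell, beside 22.3% and 22.4% of all tested genes with a window. The comparison describes letters in this window and shows nothing on the factors that bind them.

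Cell cycle genes were higher in the treated cells. Of 43 tested 29 rose and 4 fell (median 0.59). E2f2, an activator of S phase genes, went from 22.3, 11.1 and 12.8 to 58.7, 39.1 and 64.2, a rise of 1.78 (SE 0.40, limma adjusted p 0.00249). The falls included inhibitors of the cycle: Cdkn2b went from 2002, 2139 and 2281 to 859, 1172 and 1079 (−1.06) and Cdkn1b changed by −0.66. The kinase Cdk6 changed by −0.75, while Ccnd1 was called lower but not without rosiglitazone library 1 or vehicle library 1 or 2. Ccnd2, the most abundant member, differed by 0.51 (limma adjusted p 0.0599) and was called with the block (0.000114), without rosiglitazone library 3 (0.0398) and without vehicle library 1 (0.0394). DNA replication genes rose in 25 of 40 tested (median 0.44), led by the uracil glycosylase Ung, from 79.3, 47.1 and 54.6 to 155, 148 and 186. Rrm1, a ribonucleotide reductase subunit and the most abundant of them, differed by −0.20 (95% interval −0.44 to 0.04).

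Genes that build ribosomes rose in 34 of 38 tested and fell in none (median 0.64). Nhp2, of the small nucleolar particles, went from 758, 585 and 578 to 1637, 1588 and 1610.3, a rise of 1.34 (SE 0.11, limma adjusted p 4.9e-07), and Ncl, nucleolin, rose by 0.52. Proteins of the cytosolic ribosome moved less: 20 of 85 tested rose, 23.5%, near the 20.3% of all genes (median 0.23). That count was 10 without rosiglitazone library 1, 34 without rosiglitazone library 2, 9 without vehicle library 2, 32 without vehicle library 3, 31 with the block, 7 with the 6 libraries alone and 13 with equal totals. Rpl4 had a difference of −0.06 (95% interval −0.24 to 0.12), and reads of ribosomal proteins can be shared with pseudogenes. Aminoacyl-tRNA synthetases rose in 9 of 20 tested (median 0.20), led by Farsa at 0.68; the count was 5 with the 6 libraries alone and 14 with weighted libraries.

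Proteasome subunits rose in 29 of 37 tested genes (median 0.46). Psma1, a chain of the catalytic core, went from 2113, 1813 and 1734 to 7333, 4340 and 5246, a rise of 1.55 (SE 0.15, limma adjusted p 2.0e-06). The 2 falls were Psmb9, given above, and Psmb8, from 120.2, 95.003 and 135 to 62.9, 54.4 and 58.04 (−0.97), the interferon-inducible catalytic chains. Lysosomal genes fell in 22 of 39 tested and rose in 1 (median −0.40). Man2b1, a lysosomal mannosidase, went from 9920.5, 14177 and 11758 to 2894, 6009 and 3607 (−1.57, SE 0.22, limma adjusted p 4.4e-05). Psap, the precursor of activators of lipid breakdown and the most abundant member, differed by −0.22 (95% interval −0.44 to 0.01) and was called lower without rosiglitazone library 2 (limma adjusted p 0.0264). The rise, in Tfeb, a regulator of lysosomal genes, was 0.73 and was lost without rosiglitazone library 1 or vehicle library 2.

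Lists of oxidative defence were divided. NRF2 targets had 6 of 26 tested genes higher and 10 lower (median −0.00), with 5 lower without rosiglitazone library 1 or with the 6 libraries alone. Mgst1, a microsomal glutathione transferase, went from 6984, 5983 and 8362 to 21213, 15777 and 19191 (limma adjusted p 6.0e-07), and Ephx1, an epoxide hydrolase, from 2866, 2744 and 4022 to 1240.3, 1421 and 2169.8 (−1.02). Among 23 tested antioxidant enzymes 10 rose and 2 fell (median 0.27), 4 with the block. Prdx3, the peroxiredoxin of mitochondria, went from 2229.6, 1987 and 2176 to 5235, 4492 and 4873 (1.19, SE 0.09, limma adjusted p 2.3e-07), and Prdx6, a cytosolic one, from 8383, 7739.6 and 7649.8 to 3678, 3914 and 3946 (−1.04, SE 0.08, limma adjusted p 2.9e-07). Msrb3, the other fall, changed by −0.82.

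Stress and secretory genes moved little as lists. The integrated stress response had 8 of 26 tested genes higher and 3 lower (median 0.13), with 5 higher under equal totals. Nupr1, a stress-induced chromatin protein, rose by 0.86 and Slc7a11, the cystine carrier, went from 336, 424 and 275 to 186, 217 and 152 (−0.89). Chaperones of the endoplasmic reticulum had 5 of 34 higher and 3 lower. Dnajb9, a cochaperone of that compartment, went from 917, 841 and 685 to 2226, 1965 and 2449.9 (1.45, SE 0.15, limma adjusted p 2.6e-06), and Sel1l, of the degradation complex, changed by −0.46. The rises of chaperones numbered 2 without rosiglitazone library 1 or vehicle library 2 and 10 with the block, and the falls 6 with the block. Transport from the endoplasmic reticulum to the Golgi had 5 of 35 higher and 11 lower. Sec24d, a coat protein of export vesicles that carry procollagen, went from 3269, 3578 and 2796 to 1584, 2066 and 1840 (−0.81), and Mia3, a receptor for procollagen, from 11973, 13798 and 11630 to 7016, 11015 and 8659 (−0.51). Copz1, of the retrograde coat, rose by 0.46. The falls numbered 6 without rosiglitazone library 1 and 7 without vehicle library 1 or 2, and the rises 3 without rosiglitazone library 1 or vehicle library 2.

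Enzymes of foreign compounds, including targets of the aryl hydrocarbon receptor, had 5 of 27 tested higher and 12 lower (median −0.44). Ephx2, a soluble epoxide hydrolase, went from 1100.1, 1484 and 1319 to 5372, 5617 and 4676, a rise of 2.01 (SE 0.14, limma adjusted p 1.5e-07). Ces1d, a carboxylesterase with close paralogs that also hydrolyses stored lipid, went from 55.2, 23.1 and 30.2 to 439, 469 and 1059.6 (4.11). Cyp1b1, a receptor target and the most abundant member, had 21169, 25995 and 26337 and 20596, 27698 and 30422, a difference of 0.09 (95% interval −0.25 to 0.42). It was called only with weighted libraries (0.40, limma adjusted p 0.0101).

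Markers of other cell states gave the following. Of 17 tested markers of preadipocytes and fibroblasts 13 fell and 1 rose (median −0.67). Ly6a, or Sca-1, a surface marker of progenitors with paralogs, went from 1072, 858 and 1368 to 350.2, 397 and 532 (−1.36), and Vim went to 70131, 76555 and 74724 (−0.44, limma adjusted p 0.00554; 0.0779 with the 6 libraries alone). Of the macrophage markers 4 were tested, of which 2 fell and 2 were not called, with log2 differences up to 0.67. Lyz2, which has a near-identical copy, went from 160.3, 171 and 153 to 38.8, 48.9 and 51.9 (−1.78). Cd14 went from 238, 193 and 191 to 89.1, 79.4 and 77.8 (−1.32). The defining genes Itgam and Csf1r were at most 1.95 and 25.5 in any 3T3-L1 library. Spp1, made by bone cells and macrophages among others, went from 787, 744 and 1015 to 500.1, 460.0 and 608 (−0.69), and the osteoblast genes Sp7, Bglap and Ibsp were at most 6.08. Cartilage genes Acan and Col2a1 were at most 3.16, and none of 3 tested muscle markers was called (1 with the block), with Des at −0.33 (95% interval −0.89 to 0.23). The part of a change in cell makeup in the results above was not tested.

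The same drug was given to porcine DFAT cells in a medium with dexamethasone at 0.5 µM, IBMX at 12.5 µM and 2% serum, and there 1604 of 14819 tested genes were called (10.8%), 860 higher (5.8%) and 744 lower (5.02%). The response of the 2 systems was compared in 1 limma fit over 30 libraries for 9368 genes matched by symbol. The response differed in 3623 genes (38.7%), above 0 for 3T3-L1 in 1800 (19.2%) and below 0 in 1823 (19.5%). With libraries scaled to equal totals 1296 lay above and 2264 below. Species, cells and medium differ together and cannot be told apart.

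Most mitochondrial genes differed in response between the systems. For 33 complex I genes tested in both, the median change (log2) was 0.87 with 3T3-L1 cells and −0.00 with DFAT cells, and the difference was called above 0 in 32. Differences above 0 were also called for 63 of 64 mitochondrial ribosomal proteins, with medians of 0.69 and 0.01, and for 30 of 35 ribosome biogenesis genes, with 0.64 and 0.00. Cholesterol genes had medians of 0.53 and −0.13, with 16 of 23 differences above 0. Proteasome genes had 0.45 and 0.00, with 26 of 35 above 0 and 1 below.

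Adhesion and tension genes differed in the other direction. The 34 contractile genes tested in both had medians of −0.52 in 3T3-L1 and 0.17 in DFAT cells, with 23 differences below 0 and 1 above. Chemokine genes had −0.68 and 0.11, with 11 of 20 below 0 and 2 above. Lysosomal genes had −0.40 and −0.14, with 17 of 37 below 0. In 2 further lists the differences were called in both directions: small leucine-rich proteoglycans had medians of −0.52 and −0.86, and 3 of 12 differences lay below 0 and 2 above, and complement had −0.40 and −0.41, with 3 of 11 below and 2 above. Adipocyte markers had 4.54 and 2.83, with 10 of 14 differences above 0 and 1 below.

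**Figure D5:**
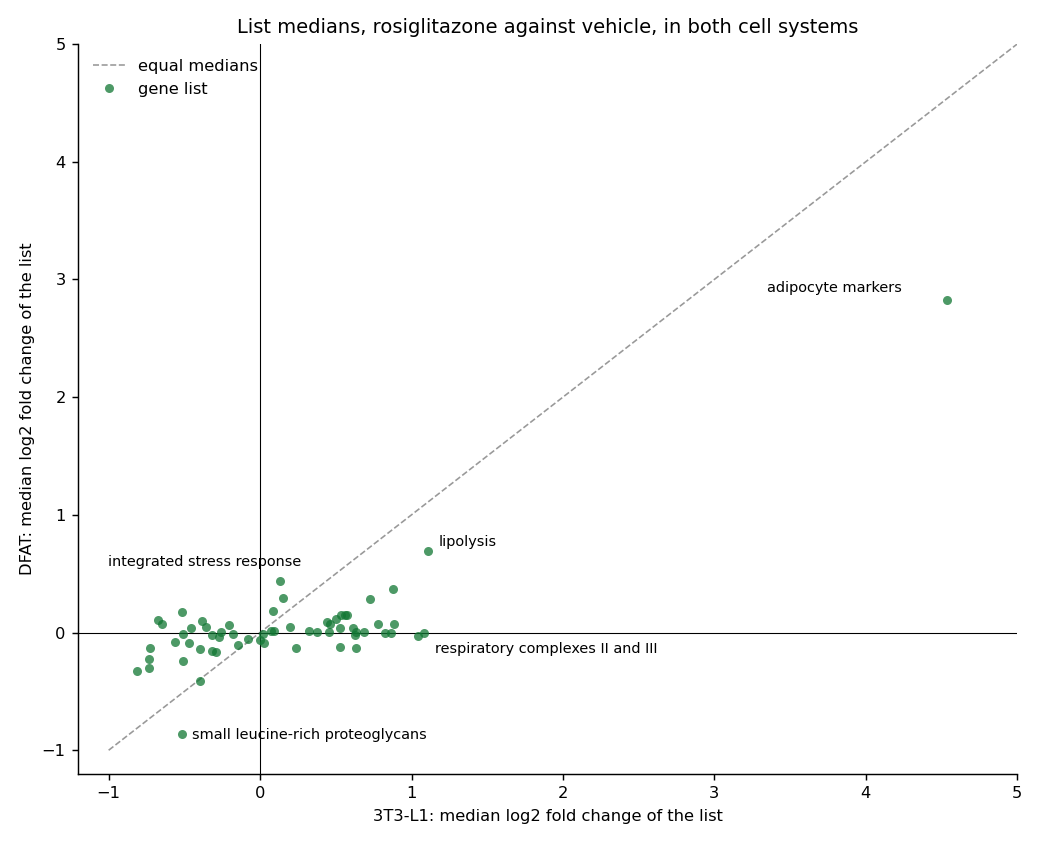
Median log2 fold change of each gene list in 3T3-L1 cells (horizontal) and porcine DFAT cells (vertical), over genes tested in both systems, with a dashed line of equal change. Respiratory lists lie near 1 on the 3T3-L1 axis and near 0 on the DFAT axis, and adipocyte markers at 4.54 and 2.83.

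Single genes differed as well. Gpat3, an acyltransferase of triglyceride synthesis, went from 220.1, 123 and 143 to 2518, 1599 and 3293 normalized counts in 3T3-L1 cells (3.90) and had 730.5, 702 and 748 and 733, 762 and 794 in vehicle and rosiglitazone DFAT libraries (0.07), a difference of 3.84 (SE 0.41, limma adjusted p 7.6e-08). Plin4 rose by 4.74 in DFAT cells, from 217, 219 and 177 to 6486, 5054 and 4959.9, beside 1.14 in 3T3-L1 cells, a difference of −3.60 (SE 0.17, limma adjusted p 3.0e-14). Ppargc1a, not called in 3T3-L1 cells, rose in DFAT cells from 5.92, 0 and 4.07 to 64.1, 73.6 and 57.03.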

How the data were processed

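RNA was taken in all 30 libraries on day 5; per the labels' protocols, mRNA was enriched and libraries were strand-marked with dUTP. The deposited signal values, 1 table for each system, are gene counts that the authors divided by DESeq2 size factors; per the submitters' processing notes bcl2fastq 2.19.1.403, STAR, DESeq2 and the GRCm38 build were used, and for the counter and the annotation no name was given. Of the 24843 genes of the 3T3-L1 values, 24070 were matched to the GRCm38 annotation. Their deposited positions had the same start in 2.62% and the same length in 95.7%, so no deposited position is printed. The positions of the DFAT values were not checked. Those values carry pig gene identifiers, although the notes name the mouse build GRCm38 for them too, and this conflict was not resolved. Because 81.7% to 82.7% of low values were whole reads (within 0.02, up to 20 reads), the planned count test was not run.

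Values were analysed as log2(value + 1) in limma 3.58.1 (R 4.3.3) with a variance trend, over all 15 3T3-L1 libraries in 1 fit, for 15723 of 24843 genes with a mean of at least 10, and called at a Benjamini-Hochberg adjusted p under 0.05; the test was tried on simulated data. Tables and figures used Python 3.11.15, numpy 2.4.6, pandas 2.3.3 and matplotlib 3.10.9. Groups were those of the labels. The minimum mean counted the rosiglitazone libraries too, so a gene could pass it through the group where it was high. Elovl3, Pck1, Sfrp5, Gdf5 and Lamb3 had a mean under 10 over the other 3T3-L1 libraries. Their place among the tested rises thus depends on the filter. Replicates were compared by chi-square per gene, 16.6 to 89.3 where sampling noise gives 1, so no pair was 1 library. Deviations of same-numbered libraries from their group means correlated at 0.216, 0.421 and 0.196. Those of different numbers correlated at −0.374 to 0.203 (median −0.12), so the values overlapped. Deviations within a group sum to 0, so these correlations depend on each other and cannot settle whether the numbers pair the libraries. A fit with the number as a block was an alternative. Other alternatives were pseudocounts, filters on low values, scalings, quantile normalization, library weights, a fit to the 6 libraries alone, and leaving out each library.

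Genes named are the 10 largest rises and falls without overlap among called genes with a mean of at least 100, for each list its largest rise, largest fall and most abundant member and all called members of a direction with 5 or fewer, all members of the regulator lists, and the 5 largest differences between systems in each direction. Members and lists were chosen with earlier results of these data known. Promoter windows other than those of Adipoq and Cxcl13 were chosen after their values were seen. Some genes that this rule names are not reported here.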

Additional observations from a re-analysis of the deposited data

Results flagged for a closer look

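The response to rosiglitazone differed between 3T3-L1 and DFAT cells most in 10 genes, the 5 largest called differences in each direction, tested as a contrast in 1 limma fit over the 30 libraries. The response was higher in 3T3-L1 cells for Cyp2e1 by 4.48 on the log2 scale (SE 0.66, limma adjusted p 6.6e-06), Nat8l by 4.40, Gpd1 by 4.04, Slc13a4 by 3.92 and Gpat3 by 3.84. It was lower for Ppargc1a (−3.88, SE 0.67, limma adjusted p 5.9e-05), Smpd3 (−3.69), Plin4 (−3.60), N4bp3 (−3.51) and Ccdc184 (−3.45).

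Gpd1 had 95.5, 155 and 102 normalized counts in DFAT vehicle libraries and 219, 102 and 178 with rosiglitazone, beside its rise in 3T3-L1 cells. N4bp3 went from 32.97, 32.7 and 19.3 to 478, 343 and 456 in DFAT cells and changed by 0.37 in 3T3-L1 cells. Smpd3, a neutral sphingomyelinase, fell in 3T3-L1 cells and had overlapping values in DFAT cells, 10.99, 13.1 and 2.04 and 33.3, 9.43 and 25.5. Cyp2e1, Slc13a4, Ppargc1a and Ccdc184 rest on low counts in 1 of the systems, and with a pseudocount of 10 their differences were 2.56, 2.50, −2.09 and −1.92. Nat8l and Smpd3 were low too, at most 19.3 and 33.3 in vehicle and rosiglitazone DFAT libraries. Their differences were 3.33 and −2.89 with that pseudocount. Species, cells and medium cannot be told apart in these differences.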

How the results depend on the processing

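The counts of called genes kept within 1.5 times of the reported 6312 under all alternatives run, from 4631 with the 6 libraries alone to 7925 with weighted libraries. Leaving out each library in turn gave 4852 (without rosiglitazone library 1) to 6610 (without rosiglitazone library 2) calls, 2607 to 3249 of them higher and 2245 to 3361 lower. With the replicate number as a block, 7827 genes were called, 3832 higher and 3995 lower, and 6311 of the 6312 were among them. Where the block changed the call of a gene described, or a list count by over 1.5 times, its value stands beside that result. The differences between systems numbered 3623, and 2636 to 4721 under the alternatives, the latter with the block; leaving out a library gave 3011 to 4000, with 1619 to 1877 above 0 and 1390 to 2123 below. Equal totals moved the split of calls, as given above. mt-Co1 had a difference of 0.00 under quantile normalization, which gives the most abundant gene of each library the same value by construction, and Ncoa4 one of 0.20 (limma adjusted p 0.0251) with weighted libraries, where the cause was not tested. A minimum mean of 100 lowered list counts because fewer genes were tested. The count test on recovered reads was not run. Depth limits genes near the minimum mean, for which log2(value + 1) shrinks fold changes.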

Other observations

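Genes outside the lists, chosen after their values were seen, showed further changes on both sides; they are single genes and no tested group. Olr1, a scavenger receptor for oxidised lipoprotein, had 18.7, 40.2 and 15.1 normalized counts with vehicle and 489, 397 and 415 with rosiglitazone (4.20, limma adjusted p 3.1e-07). Prlr, the prolactin receptor, went from 47.2, 23.1 and 30.2 to 327, 234 and 291 (3.09), and Steap4, a metalloreductase, from 19.6, 7.7 and 22.1 to 83.9, 93.5 and 212 (2.90). Nat8l, which makes N-acetylaspartate, rose by 3.57, and Alas1, the first enzyme of heme synthesis, by 1.48. The mitochondrial chaperone Hspd1 went from 9652, 7871 and 8042 to 21789, 21411 and 25640 and the ADP/ATP carrier Slc25a5 from 4872, 4123 and 4661 to 13273, 11310 and 14062. No vehicle library reached a treated one in these genes.

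On the falling side were both plasminogen activators. Plau went from 153, 172 and 205 to 26.2, 29.4 and 25.9 (−2.65, limma adjusted p 3.0e-07) and Plat from 1424, 1998 and 1931 to 414, 662 and 521 (−1.75, limma adjusted p 3.7e-06). Epha4, a receptor tyrosine kinase, had a log2 fold change of −1.96, and the secreted ligand Slit2 one of −1.49. The sodium channel genes Scn9a and Scn7a went from 106, 161 and 89.5 to 30.4, 47.4 and 18.02 and from 232, 428 and 351 to 59.8, 126 and 126. Tlr2, a receptor for bacterial lipopeptides, and Lbp, which binds endotoxin, changed by −1.35 and −1.70. Mgp, an inhibitor of calcification, went from 2948, 3217 and 2393 to 799, 1084 and 734, and Aebp1, a matrix-associated protein of fibroblasts, changed by −1.79. The treated libraries lay below all vehicle libraries in these genes.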
